A study of Mus musculus with 56 samples.

Results

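The genes described here are 10 genes by which resident Kupffer cells are recognised: *Marco*, *Cd163*, *Clec4f*, *Timd4*, *Vsig4*, *Cd5l*, *Folr2*, *Id3*, *Spic* and *Nr1h3*. They were chosen by symbol from a table of 21935 genes counted in mouse liver, and all 10 were among the 14105 genes with enough reads to be tested (at least 5 reads in at least 3 mice). The livers came from 56 male C57BL/6J mice in 7 groups of 8. Chow-fed mice given vehicle were the lean controls. The other 6 groups had eaten the AMLN diet, rich in fat, cholesterol and fructose, for 36 weeks before dosing, which gives obese mice with steatohepatitis (DIO-MASH). These mice were then dosed under the skin every day for 8 weeks. They received vehicle, zalfermin at 0.05 mg/kg (low dose) or 0.2 mg/kg (high dose), semaglutide at 3 µg/kg (low dose) or 120 µg/kg (high dose), or both low doses together (combination). Zalfermin acts like the hormone FGF21 but lasts longer, and semaglutide activates the GLP-1 receptor. The model is driven by diet alone.

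Kupffer cells are macrophages that live in the liver sinusoids, where they take up bacteria, dying cells, old red blood cells and lipoproteins from blood. They arise before birth and renew themselves locally, and their identity depends on signals from sinusoidal endothelial and stellate cells that act through receptors and transcription factors such as LXRα, ID3 and SMAD4. In steatohepatitis, resident Kupffer cells can be lost, and monocytes that enter the liver can take up their place and, with time, switch on part of the same genes. *Timd4* is the member best known for being late or absent in such recruited cells.

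Each library held between 5228187 and 20885786 reads on genes, with a median of 12206788. Levels are given as CPM, reads per 1000000 reads of the library after edgeR's correction for composition. Depth limits low levels most, and *Spic*, *Cd163* in AMLN-fed mice and *Marco* in vehicle mice rested on few reads. Summed hepatocyte markers lay between 63433 and 245250 CPM in the 56 livers, so they were abundant in each. 2 mice stood apart from their groups across genes, chow mouse 8 with a mean Spearman correlation of 0.947 with its group and low-dose semaglutide mouse 6 with 0.967. The latter resembled chow-fed mice more, at 0.974. Without chow mouse 8, 5 members passed the threshold between chow and DIO-MASH vehicle, as with it. Without low-dose semaglutide mouse 6 the counts for that group were 0 against vehicle and 7 against chow, also as with it. In these bulk samples, fewer Kupffer cells and less RNA per cell cannot be told apart.

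Stretches of 250 bases that end just before the annotated start are shown for 4 members, because *Marco* and *Timd4* moved together and *Cd5l* moved the other way, while *Folr2* shared the composite motif described next with *Timd4*. The sequences are those of RefSeq on GRCm38.p6, written 5′ to 3′ on the strand of the gene. Capitals mark GGAA and GAAA parted by any 2 bases, the composite site of the macrophage factor PU.1 and an IRF protein. *Marco* lies on the minus strand (chr1:120505025-120505274), *Timd4* on the plus strand (chr11:46810549-46810798), *Folr2* on the minus strand (chr7:101857191-101857440) and *Cd5l* on the plus strand (chr3:87357631-87357880).
Marco: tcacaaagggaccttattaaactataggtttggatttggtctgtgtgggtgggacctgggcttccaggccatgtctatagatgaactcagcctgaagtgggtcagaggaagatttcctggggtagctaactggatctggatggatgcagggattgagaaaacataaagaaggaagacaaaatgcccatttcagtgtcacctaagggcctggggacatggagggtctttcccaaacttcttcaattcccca
Timd4: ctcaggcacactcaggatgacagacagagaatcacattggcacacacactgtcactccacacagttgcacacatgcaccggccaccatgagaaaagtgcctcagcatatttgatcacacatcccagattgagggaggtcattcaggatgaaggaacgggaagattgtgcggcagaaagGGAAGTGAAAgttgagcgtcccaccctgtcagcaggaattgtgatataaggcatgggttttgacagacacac
Folr2: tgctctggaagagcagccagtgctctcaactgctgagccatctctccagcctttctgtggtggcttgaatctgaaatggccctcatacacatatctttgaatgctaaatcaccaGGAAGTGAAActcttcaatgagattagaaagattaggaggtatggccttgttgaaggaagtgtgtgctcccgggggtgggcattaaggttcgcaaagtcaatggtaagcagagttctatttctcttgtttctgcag
Cd5l: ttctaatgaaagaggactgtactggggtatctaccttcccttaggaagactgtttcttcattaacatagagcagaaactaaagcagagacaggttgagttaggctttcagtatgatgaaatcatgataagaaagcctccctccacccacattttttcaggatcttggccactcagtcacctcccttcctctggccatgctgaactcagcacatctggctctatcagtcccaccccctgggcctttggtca

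The composite motif was read on both strands and stood 72 bases before the start of *Timd4* and 136 bases before that of *Folr2*. It was chosen after the sequences had been read, and 2.3% of the 32851 RefSeq promoters hold it in a window of this length. All 10 members had a promoter entry, and *Folr2* and *Nr1h3* had an additional one. The additional *Folr2* window, at another annotated start, did not hold the composite motif. Of 5 other motifs, GGCGCC, the type bound by SMAD1/5, stood in both windows of *Nr1h3* and in 9.59% of all promoters. The *Nr1h3* windows overlap, and the match in them is the same site. GAGGAAGT (PU.1 type, in 2.44% of promoters), GTGGGAA (RBPJ type, 5.42%), the E-box CACGTG (6.02%) and AGGTCA repeated after 4 bases (the DR4 site of LXR/RXR, 0.0152%) matched no member window. These matches describe letters only. On GRCm38 (GENCODE M21), *Folr2* overlaps Gm10602 and Gm45319 and *Nr1h3* overlaps Gm13783 and Gm23390, none of which has a row in the count table, so their reads could not be told apart from the members'.

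The 5 members past the threshold between chow and DIO-MASH vehicle split in direction (edgeR quasi-likelihood test, Benjamini-Hochberg adjusted p under 0.05). *Marco*, *Cd163*, *Timd4* and *Nr1h3* were higher in chow-fed mice and *Cd5l* was lower. This share is not above that of the liver as a whole, since 55.4% of the genes tested passed in this comparison, 26.5% higher and 28.9% lower in chow. What set the members apart from each other was size. *Marco* and *Cd163* differed by log2 fold changes above 5, *Timd4* by 2.20, and *Clec4f*, the lectin found in mice almost only on Kupffer cells, by 0.22.

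**Figure D1:**
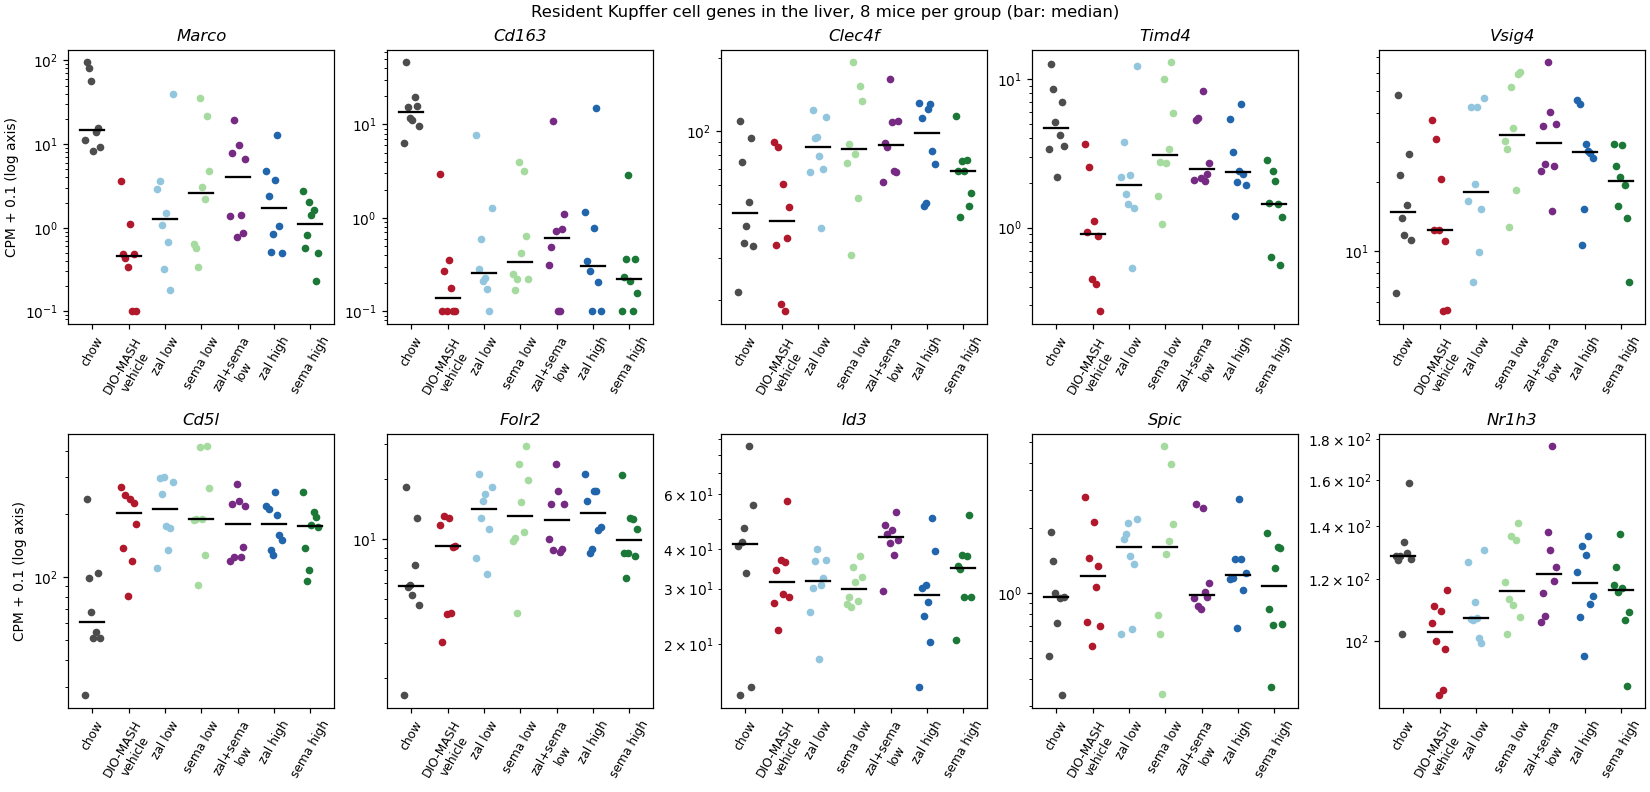
CPM (log axis, 0.1 added so that 0 can be drawn) of the 10 genes in each mouse, with 7 groups of 8 mice on the horizontal axis (zal, zalfermin; sema, semaglutide). Points are mice and bars are medians. *Marco* and *Cd163* fell far below chow in DIO-MASH vehicle, with medians of 0.36 and 0.04 CPM against 14.6 and 13.5, while *Clec4f* medians were 42.4 and 45.8 CPM.

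*Marco*, a scavenger receptor for bacteria and particles, ranged in chow-fed mice from 8.22 to 94.6 CPM with a median of 14.6. In DIO-MASH vehicle it ranged from 0 to 3.54 CPM with a median of 0.36, and 2 of the 8 mice had no read. No vehicle mouse reached the lowest chow mouse. The log2 fold change of chow over vehicle was 5.42 ± 1.01 (SE, n = 8 per group, adjusted p = 1.03e-05, edgeR), and 6.69 without vehicle mouse 1. Chow mice 2, 3 and 4 held 94.6, 80.7 and 56.5 CPM, and the other 5 held at most 15.4 CPM.

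*Cd163*, the receptor that clears haemoglobin bound to haptoglobin, showed the same separation. Its CPM in chow-fed mice ran from 6.26 through a median of 13.5 to 46.1. In DIO-MASH vehicle it ran from 0 through 0.04 to 2.84, with 4 mice at 0 reads and vehicle mouse 1 alone above 0.254 CPM. The log2 fold change was 5.07 ± 1.05 (SE, adjusted p = 5.92e-05, edgeR). Without vehicle mouse 1 it was 7.75. *Marco* and *Cd163* were the 2 members whose groups did not overlap, and 16% of all genes tested had no overlap here.

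*Timd4*, the receptor for phosphatidylserine on dying cells, lay between 2.08 and 12.6 CPM in chow-fed mice (median 4.56). It lay between 0.173 and 3.54 CPM in DIO-MASH vehicle (median 0.802). The groups overlapped through vehicle mice 1 and 3, at 3.54 and 2.44 CPM, and the log2 fold change was 2.20 ± 0.54 (SE, adjusted p = 0.00051, edgeR). Vehicle mouse 1 also had the highest *Marco*, *Cd163*, *Clec4f*, *Vsig4*, *Cd5l* and *Spic* of its group.

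*Cd5l*, which encodes a secreted protein of the scavenger receptor family and is a target of LXR, went the other way. It ranged from 27.2 to 236 CPM in chow-fed mice (median 61.2) and from 80.8 to 267 CPM in DIO-MASH vehicle (median 202). Chow mouse 2 held the 236 CPM, and the next chow mouse held 104. The log2 fold change was -1.11 ± 0.30 (SE, adjusted p = 0.00171, edgeR). Without chow mouse 2 it was -1.53, so its size depended on that mouse but its call did not.

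Of the transcription factors, *Nr1h3* (LXRα, the oxysterol receptor) passed with a small difference. Its median was 128 CPM in chow and 103 CPM in vehicle mice, with ranges of 102 to 159 and 85.4 to 116, and its log2 fold change was 0.35 ± 0.09 (SE, adjusted p = 0.00105, edgeR). *Id3*, an inhibitor of helix-loop-helix factors needed for Kupffer cells to form, had group means of 41.5 ± 23 and 33.8 ± 10.7 CPM (SD, n = 8, adjusted p = 0.273, edgeR). *Spic*, an ETS factor of iron-recycling macrophages, had means of 0.874 ± 0.499 and 1.25 ± 0.77 CPM (adjusted p = 0.312). *Nr1h3* is also expressed by hepatocytes, so its level here is not that of Kupffer cells alone.

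The remaining surface receptors had intervals that spanned 0. *Clec4f* had means of 57.5 ± 31.9 CPM in chow and 49.1 ± 28 CPM in DIO-MASH vehicle (SD, n = 8), with a 95% interval of the log2 fold change from -0.41 to 0.86. *Vsig4*, the complement receptor CRIg that captures opsonised bacteria, had means of 19.3 ± 13.1 and 16.9 ± 11.7 CPM. *Folr2*, folate receptor beta, had means of 7.58 ± 5.27 and 8.31 ± 4.06 CPM. Within both groups these genes varied several-fold between mice, and a moderate difference within these intervals was not detectable.

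Per kilobase of exon, the scale on which genes can be set against each other, the order of the members differed between diets. In chow-fed mice the median was 50.9 CPM per kilobase for *Nr1h3*, 30.05 for *Cd5l*, 18.5 for *Clec4f*, 7.57 for *Marco* and 2.48 for *Cd163*. In DIO-MASH vehicle it was 99.4 for *Cd5l*, 40.9 for *Nr1h3*, 17.2 for *Clec4f*, 0.187 for *Marco* and 0.00733 for *Cd163*. *Marco* thus stood at rank 6 in chow-fed and rank 9 in vehicle mice, and *Cd163* at rank 8 and rank 10. *Id3* and *Clec4f* were neighbours in the order in both groups (23.2 and 18.5, then 17.6 and 17.2 CPM per kilobase), and their ranges over mice overlapped.

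Reads of a member per 100 *Clec4f* reads of the same liver compare members within a library and do not depend on its depth. *Marco* gave between 16.4 and 163 reads per 100 in chow-fed mice and between 0 and 3.92 in DIO-MASH vehicle. *Timd4* gave 5.13 to 15.2 and 0.355 to 3.92, so on this scale *Timd4* did not overlap either. *Cd163* gave 16.5 to 41.8 and 0 to 3.15. Of all 14104 other genes tested, 0.135% were higher in chow with no overlap on this scale. *Cd5l* gave 107 to 214 reads per 100 in chow and 285 to 660 in vehicle mice, and 2.32% of genes were lower with no overlap.

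**Figure D2:**
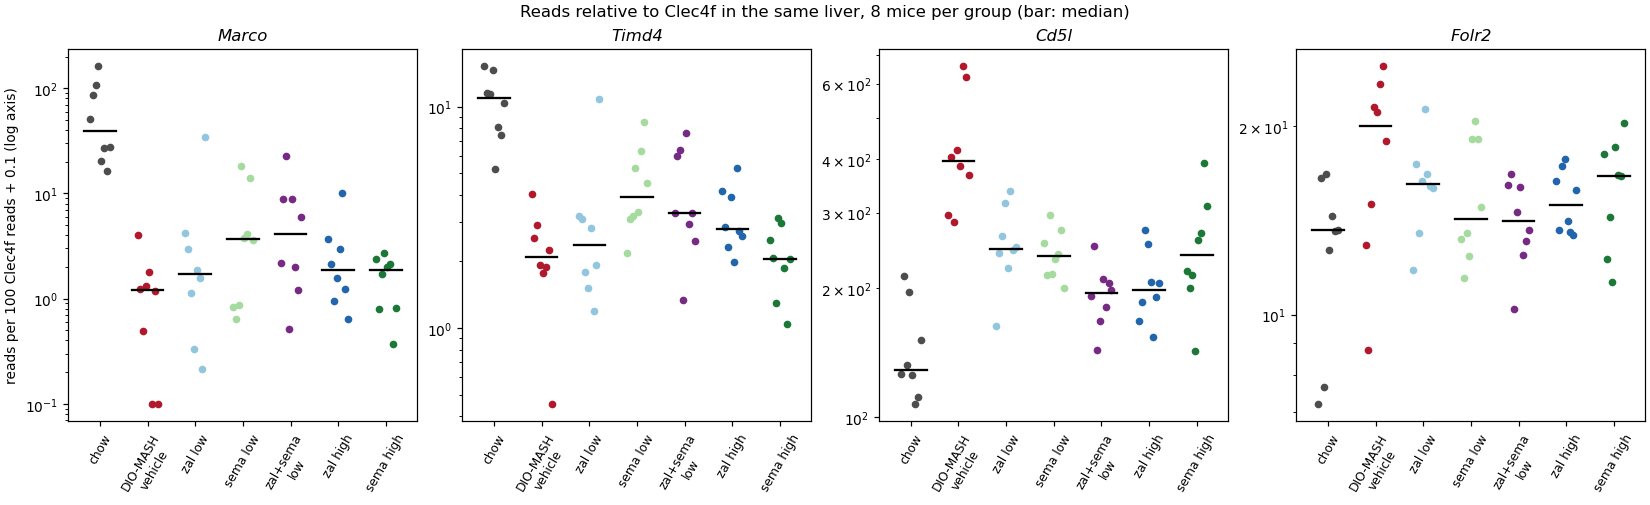
Reads of 4 genes per 100 *Clec4f* reads in the same liver (log axis, 0.1 added), with 7 groups of 8 mice on the horizontal axis. Points are mice and bars are medians. *Cd5l* had a median of 396 in DIO-MASH vehicle, above the medians of every other group, which ran from 129 in chow to 247 in low-dose zalfermin.

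The treated groups were compared with the same 8 DIO-MASH vehicle mice, so their differences share the error of that group. With the combination, 4 members passed the threshold, all higher than vehicle: *Marco*, *Clec4f*, *Timd4* and *Nr1h3*. In this comparison 20.9% of all genes tested passed and 10% passed upward. With high-dose zalfermin only *Clec4f* passed, against 17.2% of all genes. With low-dose zalfermin, low-dose semaglutide and high-dose semaglutide no member passed in edgeR or in DESeq2, where 0.468%, 0% and 2.43% of all genes passed in edgeR. The unadjusted p was under 0.05 for 4, 6 and 0 members in those 3 groups, and for 11.3%, 8.66% and 16.9% of all genes.

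**Figure D3:**
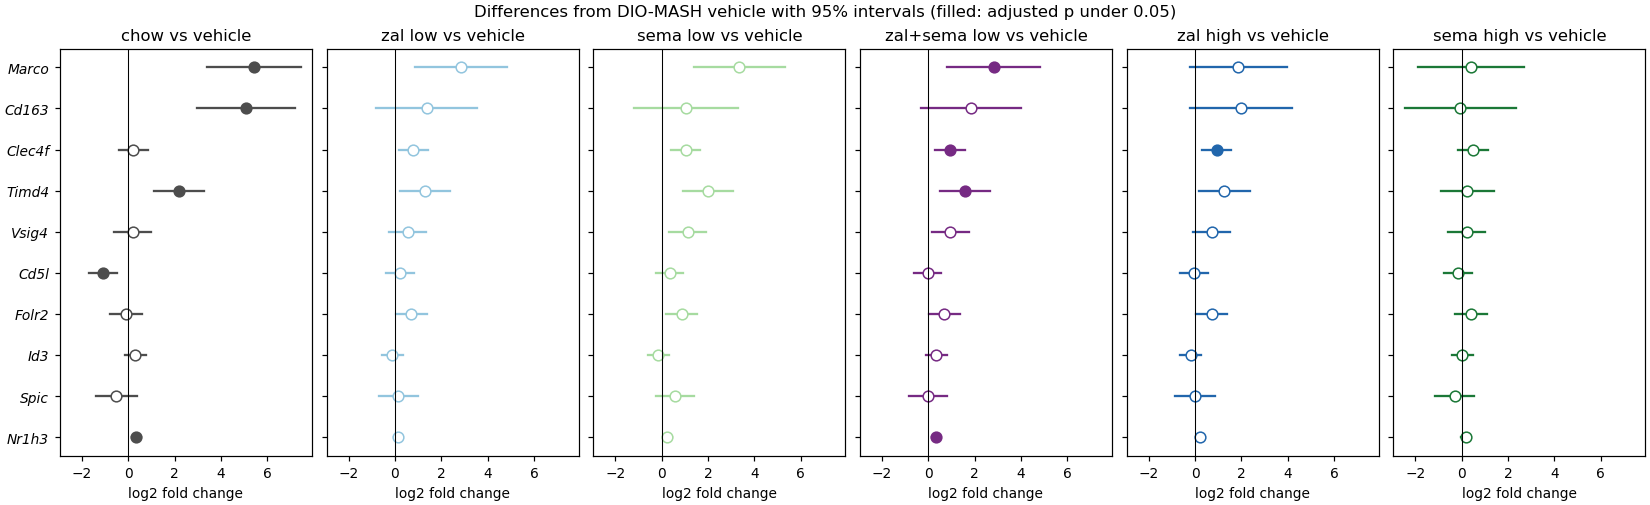
Log2 fold change of the 10 genes over DIO-MASH vehicle (points) with 95% intervals (lines) from edgeR's fit, 1 panel per group (zal, zalfermin; sema, semaglutide). Filled points passed an adjusted p of 0.05. The combination had 4 filled points and high-dose zalfermin 1, and the intervals of *Marco* and *Cd163* were the widest in each panel.

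*Clec4f* rose with the combination from a median of 42.4 CPM (17.9 to 90.3) to 87.5 CPM (61.7 to 164), a log2 fold change of 0.94 ± 0.32 (SE, n = 8, adjusted p = 0.0275, edgeR). High-dose zalfermin gave a median of 98.3 CPM (48.8 to 130) and a log2 fold change of 0.93 ± 0.32 (adjusted p = 0.0345). Both groups overlapped with vehicle, whose mice 1 and 3 held 90.3 and 86.2 CPM. The point estimates were 0.79 with low-dose zalfermin, 1.03 for semaglutide at its low dose and 0.49 with high-dose semaglutide, with adjusted p-values of 0.3, 0.289 and 0.431. Low-dose semaglutide thus had the highest mean *Clec4f* of all groups, 101 ± 54 CPM (SD), without a call.

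*Marco* with the combination had a median of 3.91 CPM (0.682 to 19.3) and a log2 fold change over vehicle of 2.82 ± 0.996 (SE, adjusted p = 0.0358, edgeR). Combination mouse 3 held 19.3 CPM, and without it the log2 fold change was 2.22 with an adjusted p of 0.133 (edgeR). Without vehicle mouse 1 it was 4.09. The labels give each mouse a number, and these numbers were split here into 4 ranges, called number series. When the number series was added to the fit, the adjusted p was 0.0544 (edgeR). In low-dose semaglutide *Marco* ranged from 0.24 to 35 CPM with a median of 2.52, and mice 4 and 7 held 35 and 21.5. In low-dose zalfermin it ranged from 0.079 to 39.4 CPM with a median of 1.18, and mouse 8 held 39.4. Without that mouse the mean of the group was 1.36 CPM in place of 6.12. High-dose zalfermin and high-dose semaglutide had medians of 1.63 and 1.01 CPM.

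*Timd4* was high in the same mice as *Marco* with either low dose alone, but in the combination it was highest in mouse 5 in place of mouse 3. With the combination its median was 2.40 CPM (1.95 to 8.18) against 0.802 in vehicle, and its log2 fold change was 1.58 ± 0.54 (SE, adjusted p = 0.0292, edgeR). Low-dose semaglutide had a larger point estimate, 2.005 ± 0.53, with a median of 2.97 CPM (0.959 to 12.9) and an adjusted p of 0.27. The highest low-dose semaglutide mice for *Timd4* were again 7 and 4, at 12.9 and 9.94 CPM, and the highest low-dose zalfermin mouse was 8, at 12.2. High-dose semaglutide was at a median of 1.35 CPM (0.462 to 2.77), a log2 fold change of 0.25 ± 0.56.

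*Nr1h3* rose with the combination to a median of 122 CPM (106 to 176), a log2 fold change of 0.32 ± 0.09 (SE, adjusted p = 0.00782, edgeR). It was the one member of the 4 whose call held in every fit that left out a mouse. The other 3 lost theirs in some: *Marco* in 8, *Timd4* in 7 and *Clec4f* in 4 of 24 such fits. The count of members past the threshold in the combination ranged from 1, without vehicle mouse 2, 4 or 6, to 6, without vehicle mouse 1. It was 2 without vehicle mouse 7 or 8 or combination mouse 3 or 5. The single call with high-dose zalfermin was lost without vehicle mouse 2, 4, 6, 7 or 8 or high-dose zalfermin mouse 1, 2, 5 or 6, and the count was 3 without vehicle mouse 1 and 2 without high-dose zalfermin mouse 4.

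*Cd163* did not pass against vehicle in any treated group. Its median stayed between 0.123 and 0.505 CPM in the 5 treated groups, and in each of them 1 or 2 mice stood far above. Combination mouse 3 held 10.9 CPM, high-dose zalfermin mouse 6 held 14.8, low-dose zalfermin mouse 1 held 7.60 and low-dose semaglutide mice 4 and 6 held 3.85 and 3.05. The first 3 of these were the treated mice above the lowest chow mouse, which held 6.26 CPM. Low-dose zalfermin mouse 8, the highest for *Marco*, held 1.18 CPM of *Cd163*.

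*Cd5l* had log2 fold changes over vehicle from -0.15 to 0.34 in the 5 treated groups, and none passed. Set against *Clec4f*, it moved: per 100 *Clec4f* reads it gave 144 to 251 with the combination and 153 to 274 with high-dose zalfermin, neither overlapping the 285 to 660 of vehicle. On that scale 2.91% and 1.18% of all genes were lower than vehicle with no overlap, and *Cd5l* was the only member among them. This scale includes the rise of *Clec4f* itself, and no test was made on it. *Folr2* gave 10.1 to 16.7 reads per 100 *Clec4f* reads with the combination and 8.70 to 24.8 in vehicle.

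*Vsig4*, *Folr2*, *Id3* and *Spic* passed against vehicle in none of the 5 treated groups. The nearest was *Vsig4* with the combination, at 32.7 ± 16.1 CPM against 16.9 ± 11.7 (SD, n = 8, adjusted p = 0.0738, edgeR). *Folr2* had point estimates from 0.40 to 0.87 in the 5 groups. *Id3* was at 43 ± 6.9 CPM with the combination and between 29.5 and 34.2 CPM on average in the other AMLN-fed groups.

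Against chow, *Marco* and *Cd163* remained lower in all 5 treated groups. The log2 fold changes of *Marco* were -2.06 with low-dose semaglutide, -2.57 for zalfermin at its low dose, -2.60 in the combination, -3.54 for zalfermin at its high dose and -5.00 for semaglutide at its high dose. Those of *Cd163* ran from -3.07 with high-dose zalfermin to -5.13 with high-dose semaglutide, and both the sizes and their order moved when single mice were left out. *Cd163* was at -5.88 without high-dose zalfermin mouse 6, -5.34 without combination mouse 3, -5.72 without low-dose zalfermin mouse 1, -5.00 without low-dose semaglutide mouse 4 and -7.03 without high-dose semaglutide mouse 4. *Marco* was at -4.66 without low-dose zalfermin mouse 8, -2.99 without low-dose semaglutide mouse 4, -3.20 without combination mouse 3 and -4.36 without high-dose zalfermin mouse 6. The adjusted p-values of both genes lay between 5.56e-05 and 0.0314 (edgeR). The call of *Marco* with low-dose semaglutide was lost in 8 of 16 fits that left out a mouse (chow mouse 2, 3 or 4, or low-dose semaglutide mouse 1, 2, 3, 5 or 8), with an adjusted p of up to 0.0916, and with only the groups compared in the fit (0.0637). *Cd5l* remained higher than chow in all 5, by log2 fold changes from 0.95 to 1.45. *Timd4* was below chow with high-dose semaglutide, by -1.95 ± 0.53 (SE, adjusted p = 0.00279), and did not pass in the other 4.

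Counts of members past the threshold against chow were 5 of 10 with low-dose zalfermin, 7 for semaglutide at its low dose, 3 in the combination, and 4 with each high dose. The shares of all genes were 47.5%, 45.6%, 32.4%, 37.2% and 39.9%, in the same order. With low-dose semaglutide, *Clec4f*, *Vsig4*, *Cd5l*, *Folr2* and *Spic* were above chow by 0.81 to 1.45, where 24.4% of all genes were higher. With only the groups compared in the fit, *Cd5l* alone of these 5 passed, and *Cd163* was the other member past the threshold, 2 in place of 7. That group's count fell to 3 without its mouse 7 and to 4 without its mouse 4 or 8 or without chow mouse 1, 4 or 5. The count for low-dose zalfermin fell to 3 without chow mouse 1, 3, 5 or 6 or low-dose zalfermin mouse 2, 3 or 5. The count for the combination rose to 6 without chow mouse 2 and to 5 without chow mouse 7.

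No member passed in the 7 direct comparisons between treated groups or in the test of whether the low doses combined additively. Both low doses together were compared with either low dose alone and with each high dose, and high-dose zalfermin with high-dose semaglutide. The doses of each agent were compared as well. The lowest adjusted p of a member over these was 0.204 in edgeR, and DESeq2 called none. Of all genes tested, 6.62% passed between the combination and low-dose zalfermin, 4.21% between it and low-dose semaglutide, 0.503% and 1.89% between it and high-dose zalfermin and semaglutide, 0.447% between the high doses, and 1.84% and 0% between the doses of zalfermin and of semaglutide. In the test of additivity 0.0142% passed. At an unadjusted p of 0.05, 4 members and 3.89% of all genes passed between the doses of semaglutide, and 2 members and 6.75% of all genes in the test of additivity. A difference between 1 treated group that passed against vehicle and 1 that did not was therefore not shown for any member.

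Several members moved together between mice of the same group. After the group means were removed from log2 CPM, *Cd5l* and *Folr2* had a Pearson r of 0.89 (Spearman rho 0.89) over the 56 mice. *Clec4f* with *Folr2* had 0.89 (rho 0.90), *Clec4f* with *Cd5l* 0.87 (rho 0.87), and *Marco* with *Timd4* 0.86 (rho 0.86). Each had an adjusted p of 3.21e-05 for r, from 100000 permutations of mice within groups over 45 pairs, whose smallest unadjusted p is 1e-05. Without the 2 mice farthest from the median of the first gene, these r were 0.87, 0.87, 0.86 and 0.84. The mice share library preparation and depth correction across genes, and no cause of the co-variation was tested.

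**Figure D4:**
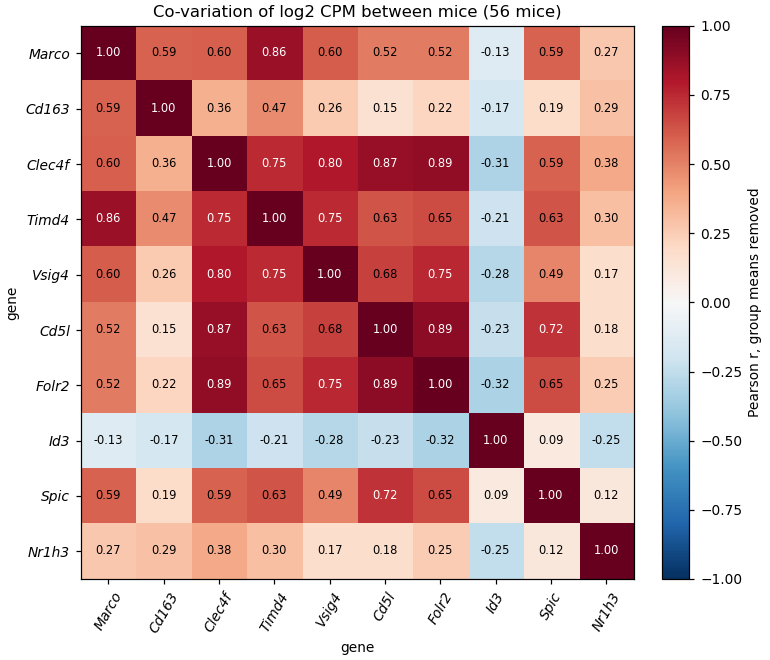
Pearson r between the log2 CPM of each pair of the 10 genes over 56 mice after removing group means (colour and number, red positive, blue negative). *Clec4f*, *Cd5l*, *Folr2* and *Vsig4* form a block with r of 0.68 or more, and *Marco* and *Timd4* pair at 0.86. The pair is not separate from the block, since *Timd4* has r of 0.75 with *Clec4f* and with *Vsig4*, 0.65 with *Folr2* and 0.63 with *Cd5l*. *Spic* has 0.72 with *Cd5l*. *Id3* has r of at most 0.09 with the other genes.

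*Cd163* had lower r with the block than the genes of the block had with each other. Its median in the AMLN-fed groups was only 0.5 to 6.5 reads, which limits any r. Within single groups its r with *Clec4f* ran from -0.16 to 0.86. Over the 56 mice the r of *Cd163* was 0.59 with *Marco* and 0.47 with *Timd4*. It was 0.36 with *Clec4f*, 0.26 with *Vsig4*, 0.22 with *Folr2* and 0.15 with *Cd5l*. For r, those with *Vsig4*, *Folr2* and *Cd5l* did not pass (adjusted p = 0.0843, 0.12 and 0.265, permutation test). For Spearman rho, *Vsig4* (0.308) and *Folr2* (0.295) did pass (adjusted p = 0.0424 and 0.0472, permutation test). *Cd5l* did not (rho 0.213, adjusted p = 0.152). *Nr1h3* had r between 0.12 and 0.38 with the 8 members other than *Id3*. *Id3* had r from -0.32 to 0.09, and none passed (permutation test, adjusted p from 0.0704 upward). Within single groups of 8 mice the r of *Id3* varied in sign, from -0.62 to 0.93 with *Marco* and from -0.74 to 0.92 with *Folr2*. *Id3* was also the one member that differed between the 4 number series (adjusted p = 0.0422, edgeR), where 1533 of the 14105 genes tested did.

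**Figure D5:**
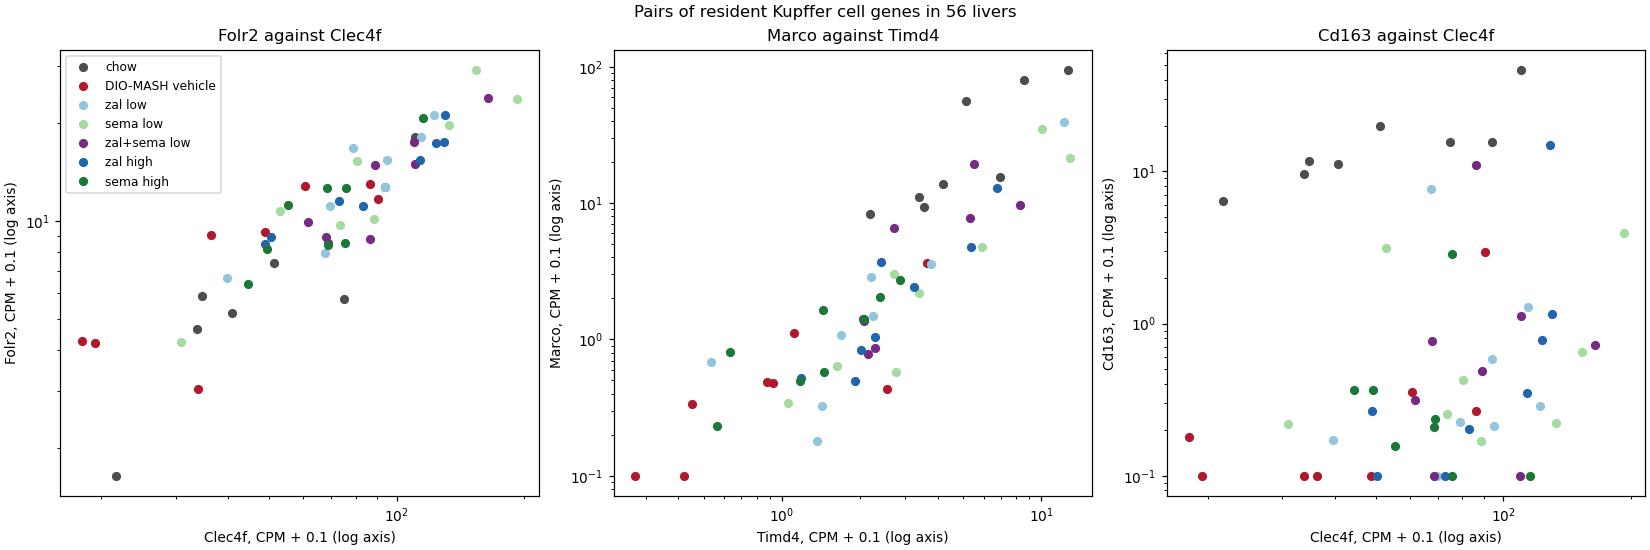
CPM of 3 pairs of genes in 56 livers (both axes log, 0.1 added), coloured by group. *Folr2* rose with *Clec4f* along a single band for all groups, and *Marco* rose with *Timd4*. The highest *Marco*, 94.6 CPM, was in a chow mouse, and the highest *Timd4*, 12.9 CPM, was in a low-dose semaglutide mouse. Most AMLN-fed mice stayed below the 6.26 CPM of *Cd163* in the lowest chow mouse at any level of *Clec4f*.

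Other genes that varied like the members were ranked among 11865 genes with a mean of at least 1 CPM. The 5 nearest to *Clec4f* were *Cfp* (properdin, r = 0.86), *Adgre4* (0.81), *Atp1b3* (0.76), *Treml4* (0.76) and *Fpr1* (0.75). The 5 nearest to *Marco* outside the members were *Cd300e* (0.71), *Fpr1* (0.67), *Siglece* (0.67), *Cxcl13* (0.67) and *Cfp* (0.64). *Cfp* and *Fpr1* stood in both. These r are descriptions over 56 mice with group means removed.

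Markers of other cells moved in the same comparisons. All 13 pan-macrophage genes tested, such as *Adgre1* (F4/80), *Cd68* and *C1qa*, were lower in chow than in DIO-MASH vehicle, with summed levels from 164 to 649 CPM against 738 to 1347. Of 13 genes of monocyte-derived and lipid-associated macrophages, 11 were lower in chow, led by *Gpnmb* (log2 fold change -6.09) and *Mmp12* (-6.04). Their sums were 67.8 to 164 CPM in chow and 505 to 970 in vehicle. *Spp1* had the largest mean of this list, 187 CPM over all mice, and also stood in the list of bile duct cell markers. In this comparison 28.9% of all genes tested were lower in chow. So *Marco*, *Cd163* and *Timd4* were lower in DIO-MASH vehicle while general macrophage genes were higher. Stellate markers were 152 to 280 CPM in chow and 928 to 1542 in vehicle, and hepatocyte markers 156477 to 245250 and 63433 to 86283. The part of these shifts in the members' levels was not tested.

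With the combination, 7 of the 13 recruited-macrophage genes fell, among them *Spp1*, *Mmp12* and *Cd63* by 1.37, 1.33 and 1.27 on the log2 scale. With high-dose zalfermin 8 of 13 fell. Of all genes tested, 10.9% and 8.68% were lower in these comparisons. The summed pan-macrophage level had medians of 724 and 732 CPM in these groups and 905 in vehicle, with overlapping ranges. The summed recruited-macrophage level had a median of 323 CPM with the combination (119 to 619), 379 with high-dose zalfermin (108 to 507) and 711 in vehicle (505 to 970). *Spp1* weighs most in this sum and is also a bile duct cell marker, so the sum need not come from recruited macrophages alone. All 8 hepatocyte markers rose in both groups, with median log2 fold changes of 0.73 and 0.65, where 10% and 8.54% of all genes were higher. The part of either shift in the rise of *Clec4f* was not tested.

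Of 21 other Kupffer cell genes, 4 were higher in chow than in DIO-MASH vehicle and 12 were lower, against 26.5% and 28.9% of all genes tested. Their median log2 fold change was -0.59 against -0.01 for all genes. *Fcna*, a ficolin of Kupffer cells, was higher by 1.22 ± 0.25 (SE, adjusted p = 3.92e-05, edgeR), as were *Sucnr1* (0.80), *Slc40a1* (ferroportin, the iron exporter, 0.75) and *Hpgd* (0.41). Lower were *Axl* (-1.90), *Slc11a1* (-1.69) and *Cd207* (-1.44), among others. *Fcna* and *Hpgd* were higher than vehicle also in the combination (0.99 and 0.35) and in high-dose zalfermin mice (0.97 and 0.55). *C6* and *Itga9* were lower with the combination, by -0.89 and -0.43. Bulk liver RNA does not show which cells the reads of this list came from. The list shares genes with the heme and iron list (*Slc40a1* and *Hmox1*) and with the efferocytosis list (*Axl* among them), so these lists are not independent.

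Of 28 niche signals and lineage factors, 7 were higher and 15 lower in chow than in vehicle, against 26.5% and 28.9% of all genes tested. The count of higher genes is near that share. *Id1*, a target of BMP signalling like *Id3*, was higher by 1.27, while *Irf8* (-1.53), *Zeb2* (-1.38), *Spi1* (PU.1, -1.34), *Gdf2* (BMP9, -1.19) and *Csf1* (-1.08) were lower. *Smad4*, which Kupffer cells need, was higher by 0.48. With the combination 3 of the 28 were higher, *Dll1* (0.53), *Smad4* (0.32) and *Nr1h2* (LXRβ, 0.23), and 3 lower, *Tgfbr2* (-0.88), *Il34* (-0.71) and *Tgfb1* (-0.56). These counts are near the 10% and 10.9% of all genes that were higher and lower there.

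Of 14 LXR targets, 2 were higher in chow (*Apoc1*, 0.54, and *Apoe*, 0.30) and 8 lower, led by *Lpl* (-2.77), *Scd2* (-2.34) and *Abcg1* (-2.16). *Nr1h3* itself was higher in chow by 0.35. For each list of this paragraph, the shares of all genes tested were 26.5% higher and 28.9% lower in chow. Of 11 heme and iron genes, 5 were higher in chow, including *Bach1* (0.81), and 2 lower, *Hmox1* (-0.59) and *Slc48a1* (-0.22). Of 13 efferocytosis and scavenger receptor genes tested, *Scarb1* was higher (0.24) and 9 were lower, led by *Cd36* (-2.40) and *Scara3* (-2.34). *Mertk*, which clears dying cells as *Timd4* does, differed by -0.38, opposite in sign to *Timd4*.

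Within number series, a grouping that the labels themselves do not give, the chow differences of *Marco* and *Cd163* kept their sign in each of 4 series. The difference in mean log2 CPM was 4.52 to 7.03 for *Marco* and 4.61 to 6.22 for *Cd163*, and that of *Timd4* was 1.79 to 3.90. For the combination, in the 3 series with mice of both groups, *Clec4f* gave 0.76 to 1.76, *Timd4* 0.85 to 1.92 and *Marco* 1.38 to 3.04. *Nr1h3* gave 0.10 to 0.63, and the 0.10 came from the series with 4 combination and 2 vehicle mice. For high-dose zalfermin *Clec4f* gave 0.70 to 1.60. Each series held 1 to 4 mice per group.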

How the data were processed

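Liver RNA sequencing from 56 mice was analysed as the authors' deposited table of gene counts, the raw number of reads on each of 21935 genes. The authors' methods name STAR and GRCm38, while the submitters' processing notes name Trim Galore 0.6.4 and Salmon 1.9.0. The counting program and the use of strand are not given in the sources used here. Groups came from the labels. The design text gives the combination as both high doses and the methods as both low doses, and the latter were used. A low-dose semaglutide mouse that the study excluded is not marked in the labels, so all 56 were used. Mice are numbered in accession order.

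The 14105 genes that had at least 5 reads in at least 3 mice were fitted in R 4.3.3 with edgeR 4.0.16 (TMM, 1 quasi-likelihood fit of 7 groups, two-sided tests, Benjamini-Hochberg over all genes tested, threshold 0.05) in 19 comparisons. CPM used normalized library sizes, and log2 CPM a prior count of 2. Intervals are 95%. Members of a group are separate mice, and no pair of mice within a group matched to sampling noise (chi-square per degree of freedom of at least 7.57). The 10 genes and the lists of other cells and pathways were chosen with earlier results of these data known. Genes named are the 10, genes of those lists past the threshold, and the 5 genes most like *Clec4f* and *Marco*. Values of 1 list gene are not reported here. Alternatives were DESeq2 1.42.0 (Wald test), its size factors in edgeR, a filter of 1 read and a stricter filter (at least 10 reads in at least 8 mice). Others were the number series, a split of the labels' mouse numbers into 4 ranges, as a further term, and a fit without the groups not compared. The rest were leaving out each mouse, runs of label numbers as a block (added after the data were seen), and co-variation without chow. The fit was tested on simulated counts. Figures used matplotlib 3.10.9.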

Additional observations from a re-analysis of the deposited data

Results flagged for a closer look

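In 4 of the 70 sets of 8 values (10 genes in 7 groups), 1 mouse lay far above the rest by Dixon's ratio on log2 CPM, the gap to the next mouse over the range of the group, and chance flags about 1 in 20 sets. All 4 concerned *Cd163*. In DIO-MASH vehicle, mouse 1 held 2.84 CPM and the next mouse 0.254 (ratio 0.679). In the combination, mouse 3 held 10.9 CPM and the next 1.01 (ratio 0.532). With high-dose zalfermin, mouse 6 held 14.8 CPM and the next 1.06 (ratio 0.556). With high-dose semaglutide, mouse 4 held 2.77 CPM and the next 0.266 (ratio 0.666). The combination and high-dose zalfermin mice lay within the chow range of 6.26 to 46.1 CPM, and the other 2 lay below it. With the ratio taken on CPM itself, 17 of the 70 sets held such a mouse, those of *Marco* and *Cd163* with low-dose zalfermin among them (mice 8 and 1, ratios 0.914 and 0.845).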

How the results depend on the processing

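The members past the threshold numbered 5 between chow and DIO-MASH vehicle under every alternative run. With the number series as a covariate, high-dose zalfermin against vehicle gave 2 members in place of 1, and low-dose zalfermin against chow 3 in place of 5. With only the groups compared in the fit, low-dose semaglutide against chow gave 2 in place of 7, and the combination against low-dose semaglutide 1 in place of 0. With 1 mouse left out, the count ran from 1 to 6 for the combination against vehicle, 0 to 3 for high-dose zalfermin against vehicle, 3 to 7 for each low dose against chow, and 3 to 6 for the combination against chow. Single members were followed only where they had passed in the main fit, so calls gained are not in the next counts. Of their alternatives other than leaving out a mouse, 207 kept the call and 24 lost it. Of those that left out a mouse, 643 kept it and 93 lost it. None reversed. Without the chow-fed mice, *Marco* and *Nr1h3* had r = 0.35 and then passed (permutation test, adjusted p = 0.0301), and *Cd5l* and *Id3* had r = 0.056 in place of -0.23. The causes were not tested. The labels give each mouse a number of its own. A replicate block of 13 runs of near-consecutive numbers (gaps of at most 3), chosen after seeing the data, gave 3 members in place of 1 for high-dose zalfermin against vehicle, 4 in place of 7 for low-dose semaglutide against chow and 1 in place of 0 for the combination against low-dose zalfermin, and *Marco* against chow lost its call with low-dose semaglutide and the combination (adjusted p = 0.174 and 0.202, edgeR). Mice of different groups in 1 run had a median r of 0.0506 between their deviations from the group means. For mice of different runs it was -0.0018. Of 54 mice, 13 were closest to their own run. How many would be so without any effect of runs was not worked out, so these values do not exclude such an effect. The main fit takes no account of runs, and the calls lost with the block depend on that choice. Depth limits *Cd163* and *Spic*, whose median reads per AMLN-fed group were at most 17.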
